A study of Mus musculus with 6 samples.

Results

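The NF-kappaB system of the mouse aorta was examined through 10 genes, which were 5 subunits of the transcription factor (Rela, Relb, Rel, Nfkb1 and Nfkb2) and 5 of its inhibitors and feedback regulators (Nfkbia, Nfkbib, Nfkbie, Nfkbil1 and Tnfaip3). They were taken by symbol from the 55341 genes of the count table. All 10 were among the 16017 genes that passed the filter on low counts. The list was chosen by gene family, and it was selected on the knockout against wild-type values of these same libraries in that those values, above all the level of Nfkbil1, were known when it was drawn up. The differences between genotypes of these genes are therefore a description, without a test.

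RNA of aortic vessels from 3 miRNA-26b-/- mice (libraries M2626, M2627 and M2628) and 3 miRNA-26b+/+ mice (M2629, M2630 and M2631) was sequenced, all of 8 weeks of age and on chow diet. The miRNA-26b-/- mice descend from R1/E (129/Sv) embryonic stem cells injected into C57BL/6NCrl embryos. The floxed miRNA was deleted with CreERT2 and tamoxifen, and CreERT2 was then removed by breeding. The promoter that drove CreERT2 is not given in the sources used here. The labels give the strain of both groups as C57BL/6NCrl, and no other allele or agent is named for the miRNA-26b+/+ mice. The study also describes chimeras from 2 embryonic stem cell clones and a mixed background of 129/Sv and C57BL/6 for the strains founded from them. Which clone or litter each of the 6 mice came from is not given in the sources used here, and p-values measure only the spread between these 6 mice.

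The libraries held between 25706728 and 33345037 counts. The labels name endothelial cells, whereas the tissue taken was, per the methods, the arch and the thoracic part of the aorta. The summed level of 9 smooth muscle markers lay between 35654 and 46777 CPM (counts scaled to a common library total), and that of 10 endothelial markers between 466 and 1748 CPM, so that smooth muscle transcripts outnumbered endothelial ones in every library. All 10 endothelial markers were detected in every library. The targeted hairpin, Mir26b, was counted 0 times in each miRNA-26b-/- library and 0, 20 and 0 times in M2629, M2630 and M2631, which does not allow a check of the genotype. Its host gene Ctdsp1 was at 201, 184 and 184 CPM in the miRNA-26b-/- libraries and at 151, 164 and 176 CPM in the miRNA-26b+/+ libraries.

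NF-kappaB is a family of dimers that rest in the cytoplasm bound to inhibitor proteins. Signals from receptors for tumour necrosis factor, interleukin-1 or microbial products activate the IKK kinase complex, the inhibitors are degraded and the dimers enter the nucleus. Several inhibitors are themselves induced by NF-kappaB, which closes a feedback loop. In the vessel wall the pathway is known for the induction of adhesion molecules on activated endothelium. A miRNA pairs through its seed, bases 2 to 8, with sites in the 3′ UTR of its target transcripts and lowers their level or translation.

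The mature sequences of the deleted miRNA and its close relative are shown first because the seed defines what they can pair with. Capitals mark bases 2 to 8, and the sequences are those of RefSeq.

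mmu-miR-26b-5p: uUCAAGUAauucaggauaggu

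mmu-miR-26b-3p: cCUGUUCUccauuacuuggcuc

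mmu-miR-26a-5p: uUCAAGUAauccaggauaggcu

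The 5p strand of miRNA-26b lies at chr1:74394324-74394344 on the plus strand of GRCm38. It shares its seed with mmu-miR-26a-5p, which is encoded elsewhere. The longest annotated 3′ UTR of each of the 10 genes was searched for the complement of the seed, as 8 bases or as 7 bases (bases 2 to 8, or bases 2 to 7 followed by A). Of the 10 genes, 1 held such a site, against 17.7% of the 21677 genes searched. That site was in Rel, at position 564 of a 3′ UTR of 5418 bases, at chr11:23741688-23741709 on the minus strand. Shorter matches to bases 2 to 7 alone were found at 2 further places in Rel and at 1 in Nfkb2. Nfkbil1, with a 3′ UTR of 215 bases, held no match of any of these kinds. Sites for mmu-miR-26b-3p, which the miRNA-26b-/- mice also lack, were not searched for. The 7-base site of Rel and the short match of Nfkb2 are shown with the pairing bases in capitals.

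Rel: aatttcccTACTTGAgatcgta

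Nfkb2: aagcagaaACTTGAtcaggcct

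NF-kappaB itself binds a degenerate motif of 10 bases, the kappaB consensus, and the promoters of the 10 genes were searched for it on both strands because several of these genes are known to be under NF-kappaB feedback. RefSeq promoters of 300 bases, 250 before and 50 after the start, were at hand for 8 of the 10 genes, all but Relb and Nfkb1. A match stood in 5 of the 8, against 5.14% of the 27025 genes searched and 4.51% of the 32851 promoters. The 5 genes were Tnfaip3, Rel, Nfkbia, Nfkbie and Nfkb2. The windows below are in GRCm38 and run along the strand of each gene, with the matching bases in capitals. Where matches on both strands overlap they are joined into 1 run.

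Nfkbia: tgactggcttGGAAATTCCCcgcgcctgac

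Nfkbie: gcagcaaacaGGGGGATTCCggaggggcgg

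Tnfaip3: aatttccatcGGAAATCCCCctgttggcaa

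Rel: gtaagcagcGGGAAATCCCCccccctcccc

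Nfkb2: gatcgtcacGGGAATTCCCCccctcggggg

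These windows lie at chr12:55492657-55492686 (minus strand) for Nfkbia, chr17:45555584-45555613 (plus) for Nfkbie, chr10:19015403-19015432 (minus) for Tnfaip3, chr11:23771041-23771070 (minus) for Rel and chr19:46304689-46304718 (plus) for Nfkb2. Tnfaip3 held a further match and Nfkb2 held 3 more. No match was found in the promoters of Rela, Nfkbib and Nfkbil1, which says only that these letters are not in the bases searched. A match is a run of letters and was not measured as a binding site here.

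Values of each gene are given below in CPM, in the order M2626, M2627 and M2628 for the miRNA-26b-/- libraries and M2629, M2630 and M2631 for the miRNA-26b+/+ libraries. Differences are log2 fold changes of miRNA-26b-/- over miRNA-26b+/+ with their standard error (SE), from the edgeR fit over all genes tested. In this fit 6.47% of all genes tested had an unadjusted p-value under 0.05, of which 3.4% of the tested genes were higher and 3.07% were lower in miRNA-26b-/-. After Benjamini-Hochberg adjustment 0.00624% of the genes, which is 1 gene (Gm15564, named after its value was seen), remained under 0.05. The CPM of the genotypes did not overlap for 11.7% of all genes, with 6.13% higher and 5.52% lower in miRNA-26b-/-.

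Among the 10 genes, the CPM of the genotypes did not overlap for Nfkbil1 (higher in miRNA-26b-/-) and Nfkbie (lower). The log2 fold change was below 0 for 9 of the 10 genes and above 0 for Nfkbil1. Its median over the 10 genes was -0.22, beside 0.01 over all genes tested, and between -0.37 and -0.14 when each library was left out in turn. Since the genes were chosen with this contrast known, nothing is read from these counts.

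**Figure D1:**
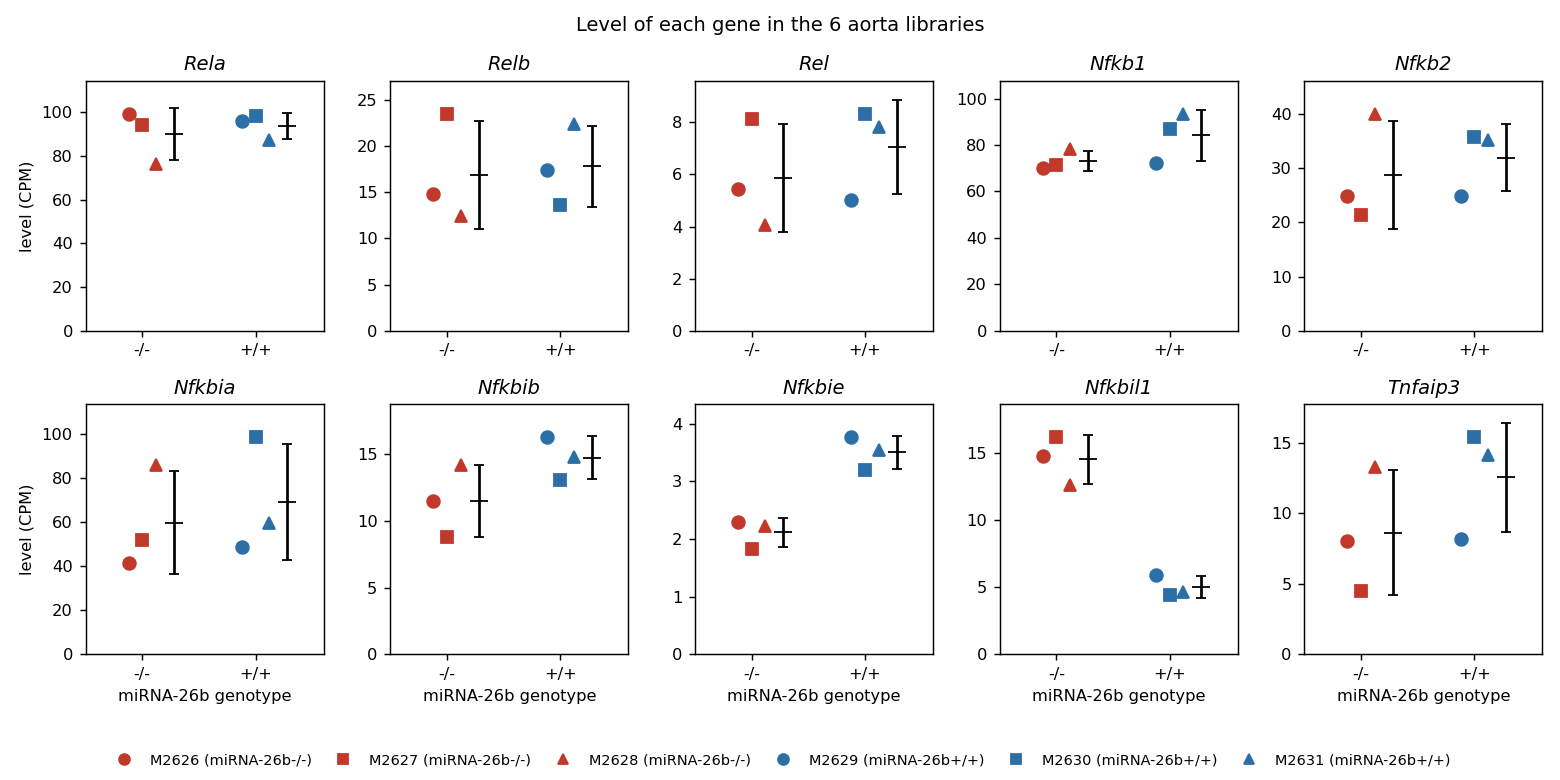
Level of the 10 genes in CPM (vertical axes from 0, each panel with its own scale) in the 3 miRNA-26b-/- libraries (red) and the 3 miRNA-26b+/+ libraries (blue), with the mean and SD of each genotype in black. The genotypes stand apart for Nfkbil1 and Nfkbie and overlap for the other 8 genes.

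Among the subunits, Rela encodes the main activating partner of the canonical dimer. It is located at chr19:5637483-5648130 on the plus strand. Rela was at 99.3, 94.2 and 76.4 CPM in the miRNA-26b-/- libraries and at 95.9, 98.4 and 87.1 CPM in the miRNA-26b+/+ libraries. The lowest value came from M2628, the groups overlapped, and the log2 fold change was -0.07 (SE 0.169). With a coefficient of variation of 9.5% over the 6 libraries, Rela was the steadiest of the 10 genes.

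Nfkb1 (chr3:135584655-135691547, minus strand) encodes a precursor that is cut into the DNA-binding partner of Rela. It was at 70.2, 71.3 and 78.1 CPM in miRNA-26b-/- and at 72.1, 86.8 and 93.5 CPM in miRNA-26b+/+. The groups overlapped through M2629, and the log2 fold change was -0.22 (SE 0.176).

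Nfkb2 (chr19:46304320-46312385, plus strand) encodes the corresponding precursor of the non-canonical branch. Its levels were 24.9, 21.3 and 40.0 CPM against 24.8, 35.7 and 35.2 CPM, with the highest value in the miRNA-26b-/- library M2628. The log2 fold change was -0.18 (SE 0.279), 0.02 without M2627 and -0.49 without M2628. Exons of Nfkb2 share 531 bases with AC114539.1 and 299 bases with Psd, both on the other strand, and reads there were counted for each gene. Without all counts of these neighbours the log2 fold change was -0.43 (SE 0.377).

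Relb (chr7:19606217-19629438, minus strand) encodes the partner of the processed Nfkb2 protein. It was at 14.8, 23.5 and 12.4 CPM in miRNA-26b-/- and at 17.4, 13.6 and 22.4 CPM in miRNA-26b+/+. Both groups spanned nearly the same range, and the log2 fold change was -0.07 (SE 0.332).

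Rel (chr11:23736847-23770970, minus strand), the subunit best known from lymphocytes, was at 5.45, 8.13 and 4.05 CPM against 5.0, 8.33 and 7.82 CPM. These levels rest on 113 to 271 counts per library. The groups overlapped and the log2 fold change was -0.24 (SE 0.486). Rel is the gene with the 7-base miRNA-26b-5p site shown above. Of the 10 lymphocyte markers, each was at 0 in at least 1 library and Cd3e was at 0 in all 6, and their summed level was between 0.6 and 18 CPM.

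Among the inhibitors, Nfkbia encodes IkappaB alpha, the inhibitor that is degraded and resynthesised fastest during signalling. It is located at chr12:55489410-55492647 on the minus strand. Nfkbia was at 41.2, 51.8 and 85.8 CPM in miRNA-26b-/- and at 48.5, 98.5 and 59.5 CPM in miRNA-26b+/+. M2628 and M2630, of different genotypes, stood above the other libraries. The log2 fold change was -0.22 (SE 0.286), -0.56 without M2628 and 0.13 without M2630.

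Nfkbib (chr7:28758251-28767512, minus strand), which encodes IkappaB beta, was at 11.5, 8.76 and 14.2 CPM against 16.3, 13.1 and 14.8 CPM. M2628 overlapped the miRNA-26b+/+ libraries, and the log2 fold change was -0.39 (SE 0.338). Its exons share 42 bases with Sirt2, which was at 53.8 to 73.1 CPM, and 314 bases with Ccer2, which had 0 counts. As Sirt2 had more counts than Nfkbib, the share of Nfkbib reads that came from Sirt2 cannot be bounded from the table.

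Nfkbie (chr17:45555703-45563169, plus strand), which encodes IkappaB epsilon, was at 2.30, 1.83 and 2.22 CPM in miRNA-26b-/- and at 3.77, 3.20 and 3.54 CPM in miRNA-26b+/+. The groups did not overlap, and every miRNA-26b-/- library was lower. The log2 fold change was -0.76 (SE 0.661), a 1.69-fold lower level, and stayed between -0.83 and -0.65 when each library was left out in turn. This is the smallest count behind any of the 10 genes, with 59 to 62 counts in miRNA-26b-/- and 89 to 114 counts in miRNA-26b+/+, and its SE was the largest of the 10.

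Tnfaip3 (chr10:19000910-19015657, minus strand) encodes a ubiquitin-editing enzyme that shuts down signalling upstream of the IKK complex. Its levels were 8.05, 4.47 and 13.3 CPM in miRNA-26b-/- and 8.14, 15.4 and 14.1 CPM in miRNA-26b+/+. M2628 lay among the miRNA-26b+/+ libraries, whereas M2626 and M2627 lay below all of them. The log2 fold change was -0.59 (SE 0.445), -1.06 without M2628 and -0.23 without M2627.

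Nfkbil1 encodes a protein named for its ankyrin repeats of the IkappaB type, and its gene lies in the major histocompatibility complex at chr17:35220175-35235792 on the minus strand. It was at 14.8, 16.2 and 12.6 CPM in miRNA-26b-/- and at 5.92, 4.45 and 4.67 CPM in miRNA-26b+/+. The lowest miRNA-26b-/- library was above the highest miRNA-26b+/+ library. The log2 fold change was 1.53 (SE 0.399), a 2.88-fold higher level, and leaving out each library in turn gave values between 1.43 and 1.65. These levels rest on 353 to 541 counts in miRNA-26b-/- and on 124 to 179 counts in miRNA-26b+/+.

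**Figure D2:**
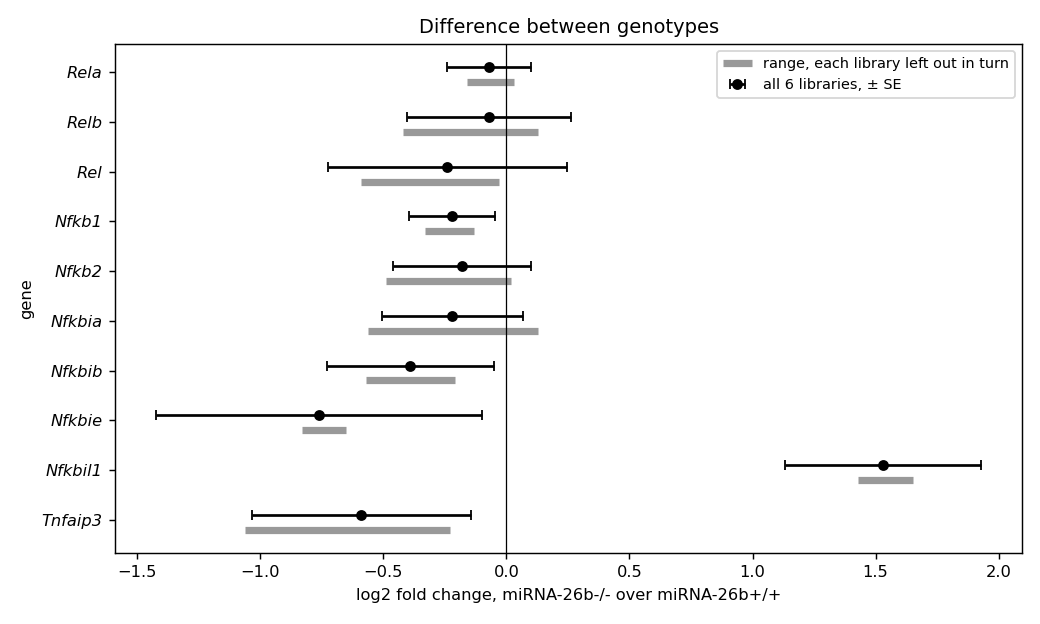
Log2 fold change of miRNA-26b-/- over miRNA-26b+/+ (horizontal axis) for the 10 genes, as point and SE from the edgeR fit of all 6 libraries, with the range over the fits that leave out each library in turn in grey. Nfkbil1 lies at 1.53, and the other 9 genes lie between -0.76 and -0.07.

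The value of Nfkbil1 is tied to its neighbours, because strand was ignored in the counting and a read that touched more than 1 gene added to each. Nfkbil1 shares 144 bases of exon with Atp6v1g2, which encodes a subunit of the vacuolar proton pump (chr17:35235088-35235231), and 143 bases with Gm16181 (chr17:35220834-35220976), both on the plus strand. Atp6v1g2 was at 3.85, 2.37 and 3.12 CPM in miRNA-26b-/- and at 0.695, 2.69 and 0.746 CPM in miRNA-26b+/+, with a log2 fold change of 1.17 (SE 0.808, unadjusted p = 0.168, adjusted p = 0.858). Gm16181 was at 2.57, 3.45 and 1.86 CPM against 0, 1.19 and 0.519 CPM, with a log2 fold change of 2.25 (SE 1.02, unadjusted p = 0.0396, adjusted p = 0.748). Both neighbours thus had their higher mean in miRNA-26b-/-, and the groups of Gm16181 did not overlap. Their counts may in turn include reads of Nfkbil1, whose difference was known. Their differences and p-values are therefore not separate from it and are a description.

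The reads that Nfkbil1 shares with a neighbour cannot exceed the counts of that neighbour, which sets a bound. Less all counts of both, Nfkbil1 was at 8.4, 10.4 and 7.67 CPM in miRNA-26b-/- and at 5.23, 0.575 and 3.41 CPM in miRNA-26b+/+. The groups still did not overlap. The lowered miRNA-26b-/- values also lay above the deposited miRNA-26b+/+ values, the highest of which was 5.92 CPM. Fitted with the neighbours subtracted in all libraries, the log2 fold change was 1.49 (SE 0.567). Subtracted in the miRNA-26b-/- libraries alone, which is the least favourable case, it was 0.81 (SE 0.451). Rela, Relb, Rel, Nfkb1, Nfkbia, Nfkbie and Tnfaip3 share no exon bases with another gene.

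**Figure D3:**
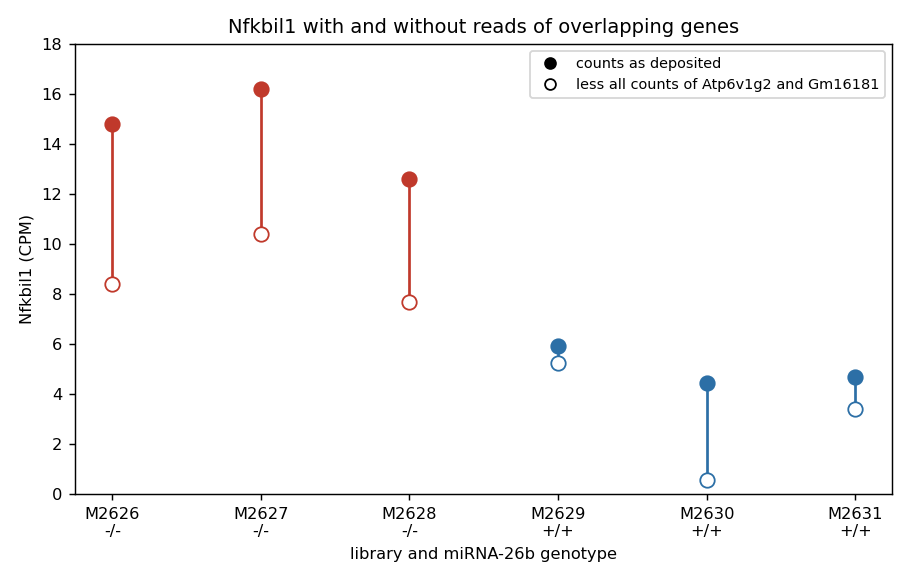
Nfkbil1 in CPM (vertical axis from 0) in each library, miRNA-26b-/- in red and miRNA-26b+/+ in blue, with the deposited counts as filled points and the counts less those of Atp6v1g2 and Gm16181 as open points. The open points of miRNA-26b-/- lie at 7.67 CPM or higher, above the filled points of miRNA-26b+/+, which reach 5.92 CPM.

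Levels were next compared between the genes, which the choice of the list did not use. For this the CPM of each gene were divided by its exon length in kb (RPKM). This length joins all annotated exons of a gene, 12061 bases for Nfkb1 and 3072 bases for Rela. It can exceed the length of the transcripts present, so that the order between genes depends on the annotation. Nfkbia, at a mean of 39.9 RPKM ± 14.1 (SD, n = 6), and Rela, at 29.9 RPKM ± 2.84, formed the top of the order. Nfkb2, Nfkb1, Nfkbib, Nfkbil1 and Relb followed with means between 6.61 and 4.47 RPKM. Tnfaip3 at 1.46 RPKM ± 0.597, Nfkbie at 0.922 RPKM ± 0.262 and Rel at 0.866 RPKM ± 0.248 were lowest. Among all genes tested, Nfkbia lay at percentile 92.7 of the RPKM, Rela at 90.0 and Rel at 16.7.

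Of the 9 pairs of neighbours in this order, 2 stood in the same order in all 6 libraries. Rela exceeded Nfkb2 4.63-fold and Relb exceeded Tnfaip3 3.22-fold, each with p = 0.0312 in an exact two-sided sign-flip permutation test over the 6 libraries, the smallest p-value this test can give, and an adjusted p = 0.14 over the 9 pairs. The other 7 pairs were in this order in 2 to 5 of the 6 libraries, so that their differences lay within the spread between libraries. The pairs were formed by sorting the means of these same libraries and 0 of the 9 passed adjustment, so the order is given as a description. Nfkbia exceeded Rela in 4 of 6 libraries.

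The place of Nfkbil1 in this order differed between the genotypes. This restates its genotype difference, which was known when the list was drawn up, and includes reads shared with Atp6v1g2 and Gm16181. In miRNA-26b-/- its mean of 8.34 RPKM ± 1.03 (SD, n = 3) put it at place 3, above Nfkb2 at 6.27 RPKM ± 2.17. In miRNA-26b+/+ its mean of 2.87 RPKM ± 0.455 put it at place 7, below Relb at 4.58 RPKM ± 1.14. Over the 6 libraries its coefficient of variation was 54.9%, the largest of the 10 genes, and this value includes the same difference.

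Within the subunits, Rela had the highest RPKM in every library. Its share of the summed RPKM of the 5 subunits was between 56.0% and 67.2%. Nfkb1 made up 12.1% to 15.3%, Nfkb2 9.61% to 19.9%, Relb 6.77% to 12.5% and Rel 1.24% to 2.25%. These shares depend on the exon lengths used, above all the 12061 bases of Nfkb1. In CPM, without this division, Nfkb1 exceeded Rela in M2628 (78.1 against 76.4 CPM) and in M2631 (93.5 against 87.1 CPM). The highest share of Nfkb2 and the lowest share of Rel both came from M2628.

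**Figure D4:**
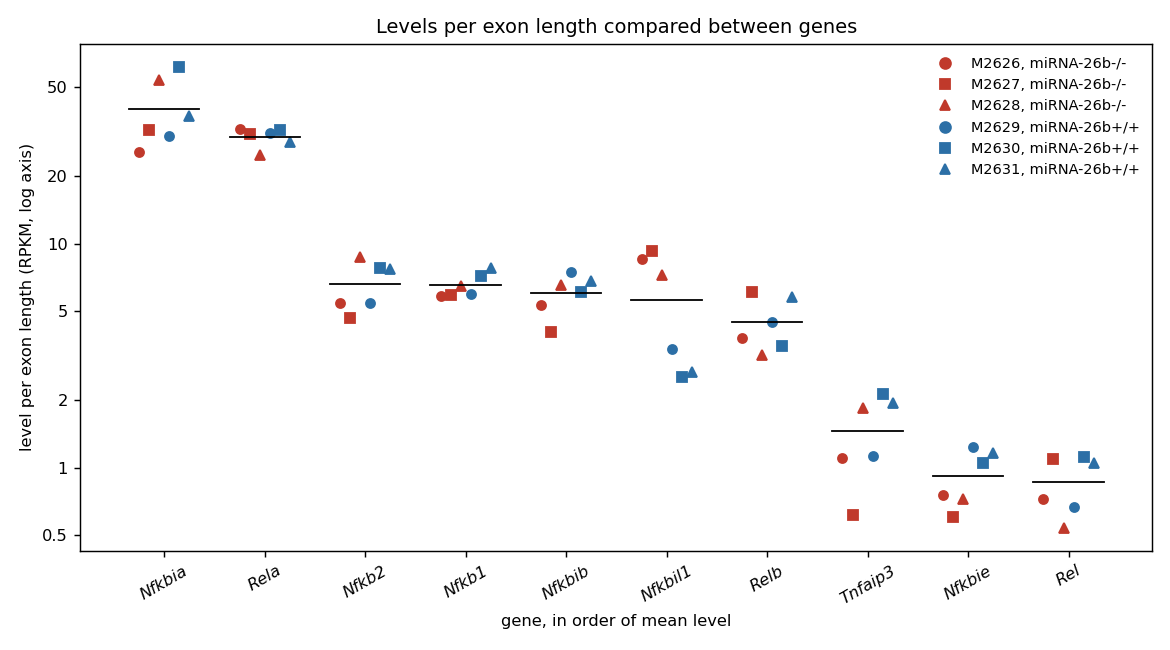
Level per exon length in RPKM (log axis) of the 10 genes in each of the 6 libraries, miRNA-26b-/- in red and miRNA-26b+/+ in blue, with the mean over the 6 libraries as a line. Nfkbia and Rela lie at 24.9 RPKM or higher in every library, and Tnfaip3, Nfkbie and Rel lie at 2.14 RPKM or lower.

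The genes whose pattern over the 6 libraries was most like that of a member were sought among 11679 genes with a mean of at least 5 CPM, by Pearson's r of log2 CPM. These values are a description of 6 libraries that share genotype and cell content. They are the highest of 11679 values for each member. An r above 0.95 was reached by 23 genes for Nfkbil1, 11 for Nfkbia and 22 for Tnfaip3. Closest to Nfkbil1 were Dctn3 (r = 0.989), Fundc2 (r = 0.986) and Szrd1 (r = 0.983). The difference was smaller in these, with Dctn3 at 19.8, 20.7 and 20.4 CPM against 15.6, 14.2 and 14.6 CPM. Closest to Nfkbia were Etv3 (r = 0.994), Htt (r = 0.99) and Sema3g (r = 0.983), each highest in M2630 and next in M2628. Closest to Tnfaip3 were Thada (r = 0.995), Eps8 (r = 0.993) and Cln8 (r = 0.983), each lowest in M2627.

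Markers of cell content differed between the libraries and are set beside some of these genes. The summed level of the 10 endothelial markers was 466, 505 and 1748 CPM in miRNA-26b-/- and 1233, 1650 and 1447 CPM in miRNA-26b+/+. The difference between genotypes had p = 0.4 in an exact two-sided permutation test, for which 0.1 is the smallest value with 3 against 3. M2626 and M2627 stood apart from the other 4 libraries, so that the libraries fell into separate clusters and no correlation is given. In these bulk libraries fewer endothelial cells and less RNA per endothelial cell cannot be told apart. The 2 libraries with the fewest endothelial transcripts also held the lowest Tnfaip3 values, 8.05 and 4.47 CPM, although M2629 at 8.14 CPM was close to them. Nfkbia was highest in M2628 and M2630, the libraries with the most endothelial transcripts. Nfkb2 was at 40.0 and 35.7 CPM in these and nearly as high in M2631, at 35.2 CPM. Rela, Relb and Rel were lowest in M2628, at 76.4, 12.4 and 4.05 CPM, but were at 98.4, 13.6 and 8.33 CPM in M2630. The 9 macrophage markers also summed lowest in M2626 and M2627, at 209 and 275 CPM, against 394 to 664 CPM in the other libraries. The 7 fibroblast markers summed to 8627 CPM in M2628 and to 4594 to 5746 CPM elsewhere. The 7 adipocyte markers summed to 459 to 1881 CPM, the highest in M2627. The part of endothelial or other cell content in these results was not tested.

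The 7 Schwann cell markers summed to 468, 464 and 320 CPM in miRNA-26b-/- and to 227, 234 and 280 CPM in miRNA-26b+/+, without overlap (exact permutation p = 0.1, the smallest this design allows). Of these 7 markers, 2 were higher in every miRNA-26b-/- library and Mag was at 0 in at least 1 library. Their part in the level of Nfkbil1, which moved the same way, and that of the endothelial content were not tested. The 6 sympathetic neuron markers were at 58.9 to 360 CPM, the highest in M2627, with p = 1.0 in the exact permutation test.

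**Figure D5:**
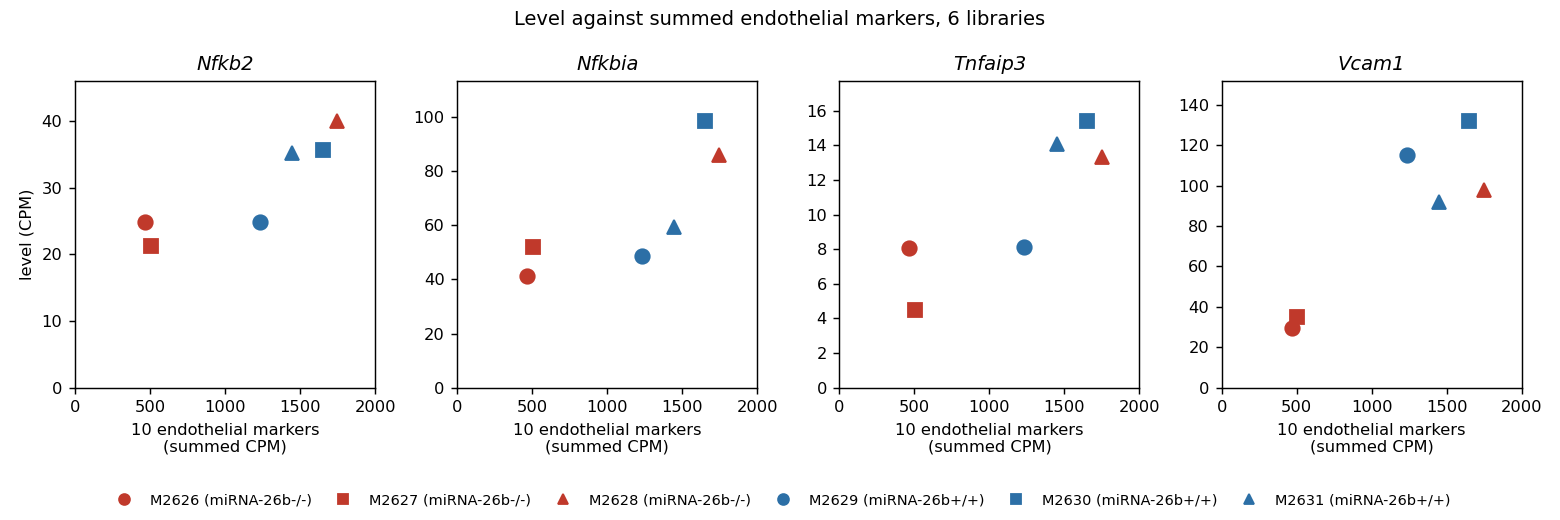
Level of Nfkb2, Nfkbia, Tnfaip3 and the target gene Vcam1 in CPM (vertical axes) against the summed CPM of 10 endothelial markers (horizontal axis), miRNA-26b-/- libraries in red and miRNA-26b+/+ libraries in blue. M2626 and M2627 lie at 466 and 505 CPM of endothelial markers, apart from the other 4 libraries at 1233 to 1748 CPM. The genes drawn were picked after their values were seen, and the other members are not drawn.

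The rest of the pathway was followed in 4 lists, of which 73 of 91 genes passed the filter on low counts. The lists were drawn up with earlier results of these data known, so their counts and p-values are a description. Of these 73 genes, 0 were higher and 4 were lower in miRNA-26b-/- at an unadjusted p-value under 0.05 in edgeR, which is 5.48% beside 6.47% of all genes, and 0 passed adjustment. DESeq2 called 3 and limma voom 5 of the pathway genes at an unadjusted p-value under 0.05. Another 9 genes, Tnf, Lta, Cd40lg, Nfkbid, Tnip3, Ccl20, Il6, Csf2 and Bcl2a1d, had 0 counts in all 6 libraries, which allows up to 3 counts, or 0.117 CPM in the smallest library, as counting error.

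Of the receptors and ligands, 12 of 18 were tested, 0 were higher and 1 was lower, with a median log2 fold change of 0.03. The lower gene was Tnfrsf11a, the receptor for the bone-resorption cytokine RANKL. It was at 27.9, 29.1 and 33.3 CPM in miRNA-26b-/- and at 56.4, 42.8 and 50.7 CPM in miRNA-26b+/+. The groups did not overlap and the log2 fold change was -0.75 (SE 0.211, unadjusted p = 0.00296, adjusted p = 0.731). It was lower at an unadjusted p-value under 0.05 in each of the 6 fits that left out 1 library. The receptors with the highest levels were Tnfrsf1a at 96.1 to 139 CPM (log2 fold change 0.04, SE 0.173), Ltbr at 62.8 to 73.8 CPM (0.01, SE 0.173) and Il1r1 at 45.2 to 69.7 CPM (-0.06, SE 0.206), whose genotypes overlapped.

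Adaptors and kinases were tested for 27 of 29 genes, of which 0 were higher and 1 was lower, with a median log2 fold change of 0.00. Ikbkg, the regulatory subunit of the IKK complex, was at 28.4, 38.4 and 39.3 CPM in miRNA-26b-/- and at 54.8, 41.6 and 54.4 CPM in miRNA-26b+/+. The groups did not overlap and the log2 fold change was -0.52 (SE 0.216, unadjusted p = 0.03, adjusted p = 0.736). Ikbkg passed the unadjusted threshold in 3 of the 6 fits that left out 1 library and lost it without M2626, M2629 or M2631, with values from -0.62 to -0.40. The genes with the highest levels, Tab2 (log2 fold change 0.00, SE 0.176), Irak1 (0.14, SE 0.185) and Rbck1 (0.08, SE 0.188), overlapped between genotypes.

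The other inhibitors and feedback genes were tested for 16 of 18 genes, of which 0 were higher and 0 were lower, with log2 fold changes between -0.44 and 0.26. The highest levels were those of Tax1bp1 (170 to 208 CPM, log2 fold change -0.05, SE 0.146) and Rnf11 (119 to 197 CPM, 0.16, SE 0.18), which hold ubiquitin-editing complexes together with Tnfaip3, and of Tollip (89.8 to 109 CPM, -0.15, SE 0.16). For Tollip the groups did not overlap, with miRNA-26b-/- lower.

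Textbook target genes of NF-kappaB were tested for 18 of 26 genes, of which 0 were higher and 2 were lower, with a log2 fold change below 0 for 14 of the 18 and a median of -0.42, which lay between -0.48 and -0.20 when each library was left out. Over all genes tested 48.6% had a log2 fold change below 0, the median was 0.01 and 3.07% were called lower. The list holds adhesion molecules of endothelium (Vcam1, Icam1, Sele and Selp), and the summed endothelial markers were at 466 and 505 CPM in M2626 and M2627 against 1233 to 1748 CPM in the other libraries. Their part in the values of this list was not tested. Vcam1, an adhesion molecule of activated endothelium, was at 29.6, 35.2 and 97.8 CPM in miRNA-26b-/- and at 115, 132 and 91.8 CPM in miRNA-26b+/+. M2628 lay within the miRNA-26b+/+ libraries, so that the groups overlapped, and the log2 fold change was -1.08 (SE 0.324, unadjusted p = 0.00469, adjusted p = 0.734). Lcn2 was at 1.21, 0.33 and 0.108 CPM against 2.25, 5.10 and 0.617 CPM, with a log2 fold change of -2.32 (SE 1.11, unadjusted p = 0.0496, adjusted p = 0.769). It passed the unadjusted threshold in 2 of the 6 fits that left out 1 library and lost it without M2627, M2628, M2629 or M2630, with values from -3.5 (without M2626) to -1.46 (without M2630). The targets with the highest levels besides Vcam1, which were Csf1 (-0.14, SE 0.198) and Sod2 (-0.07, SE 0.246), overlapped between genotypes.

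Without M2628, 8 pathway genes were lower at an unadjusted p-value under 0.05 in place of 4, in a fit that called 10.8% of all genes, and 5.77% as lower. The 8 were Tlr4, Tnfrsf11a, Ikbkg, Vcam1, Icam1, Sele, Selp and Cd44. Of these, Vcam1 (log2 fold change -1.8, SE 0.218, adjusted p = 0.000502) and Selp (-1.75, SE 0.349, adjusted p = 0.0311) passed the Benjamini-Hochberg adjustment in edgeR. So did 82 of all 15654 genes tested without M2628. With all 6 libraries the adjusted p-values in edgeR were 0.734 for Vcam1 and 0.836 for Selp. M2628 itself held 97.8 CPM of Vcam1, within the miRNA-26b+/+ values, and 36.2 CPM of Selp, above them. The remaining miRNA-26b-/- libraries in the fit without M2628 are M2626 and M2627, the libraries at 466 and 505 CPM of endothelial markers. Sele and Selp encode selectins of endothelium, and Sele had 0 counts in both of these libraries. The part of the endothelial content in these values was not tested.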

How the data were processed

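The authors deposited raw counts per gene. Alignment was done with STAR on GRCm38 (mm10), and featureCounts 1.6.4 then assigned reads to exons grouped by gene name, ignoring strand and letting a read add to every gene it touched. The header of the count table names GENCODE release M21. The deposited table of normalized values, with the authors' fold changes, p-values and a column headed FDR, was not used. Here, genes whose counts summed to 2 or more and that exceeded 1 CPM in 2 or more libraries were analysed with edgeR 4.0.16 (R 4.3.3), by TMM scaling and its quasi-likelihood test (prior count 0.125), with Benjamini-Hochberg adjustment over 16017 genes. Single values were tested with exact permutation tests. The depth of 25706728 to 33345037 counts limits genes with few counts, and intervals and floors cover counting error only. Genotypes were taken from the sample labels. Alternatives were library size and upper quartile scaling, DESeq2 1.42.0, limma voom 3.58.1, the earlier quasi-likelihood method of edgeR, other filters, a prior count of 2 and leaving out each library. The subtraction of overlapping genes was added after seeing the data. The procedure was tested on simulated data.

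The members and lists were chosen with earlier results of these data known. Named are all 10 members, pathway genes whose unadjusted p-value was under 0.05, the 3 genes of each list with the highest mean CPM, genes that share exons with a member, and the 3 genes most alike to Nfkbil1, Nfkbia and Tnfaip3. Genes named besides these were chosen after their values were seen. Promoter and miRNA sequences are those of RefSeq on GRCm38, and 3′ UTRs were read from GENCODE release M21.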

Additional observations from a re-analysis of the deposited data

How the results depend on the processing

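Over all genes, 1036 had an unadjusted p-value under 0.05, and leaving out each library in turn gave 686 (without M2631) to 1692 (without M2628). The number with an adjusted p-value under 0.05 was 1 in edgeR, 57 with DESeq2, 3 with limma voom, 0 with the earlier quasi-likelihood method of edgeR, and 0 to 82 when each library was left out, with 82 without M2628. The cause was not tested. Pathway genes with an unadjusted p-value under 0.05 numbered 4, and 2 to 8 when each library was left out, with 8 without M2628 and 2 without M2629. No count of members by p-value is given, since the members were chosen with this contrast known. The log2 fold change of Nfkbil1 was 1.53 (SE 0.399) in the main fit. It fell to 0.81 (SE 0.451) with the counts of Atp6v1g2 and Gm16181 subtracted in the miRNA-26b-/- libraries alone. Log2 fold changes of members moved by less than 1 SD between libraries in 142 of 143 values. Rescaling or leaving out a library can hardly move a mean by that much, so nothing is read from this count. The log2 fold changes kept their sign in 137 of 143 values. The sign turned for Relb without M2626, M2628 or M2631, for Nfkb2 without M2627, for Rela without M2628 and for Nfkbia without M2630. The number of neighbouring pairs in the same order in every library was 2 under each alternative for the order. Scaling or leaving out a library cannot reorder genes within a library, so nothing is read from this number. No paired analysis was possible because the labels give the mice no shared replicate numbers. Depth limits Nfkbie and Rel most among the members. A relation of members to the endothelial markers, added after seeing the data, is not given because the libraries fall into separate clusters.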
